A study of Homo sapiens with 6 samples.

Results

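γH2AX peaks beside centromeres were examined in DLD1, an established human colorectal cancer cell line, with or without the gene UNG. γH2AX is histone H2AX phosphorylated at a serine near its end, and it was mapped by chromatin immunoprecipitation and sequencing (ChIP-seq). The cells were wild type (WT, UNG+/+) or UNG knockout (KO, UNG-/-), and cells of each kind received no drug, pemetrexed or cisplatin, with 1 library for each of the 6 groups. Peak lists of the 4 drug-treated libraries were analysed, and the untreated libraries were not analysed here. The sources used here do not state doses, treatment times or the number of knockout clones. A peak was a member when its midpoint lay in 1 of 18 fixed windows around centromeres, a choice that used position and not the strength of a peak. Of 12579 peaks in all lists, 287 were members: 56 of 924 in the WT pemetrexed list, 33 of 1807 in WT cisplatin, 63 of 5278 in KO pemetrexed and 135 of 4570 in KO cisplatin.

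A centromere is the part of a chromosome on which the kinetochore assembles at mitosis. In humans it is built on long arrays of alpha satellite, a tandem repeat, and the sequence beside it holds further satellites and duplicated segments among scattered genes. Most of the array is missing from older genome assemblies such as hg18, so that the sequence stops at each side of a gap. H2AX is phosphorylated over long stretches of chromatin around DNA double strand breaks and at stalled replication forks. UNG is the uracil DNA glycosylase that starts base excision repair at uracil in DNA. Pemetrexed is an antifolate that blocks thymidylate synthesis and so favours uracil in place of thymine, and cisplatin crosslinks bases of DNA directly.

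The windows covered 210 Mb of hg18. On chromosome 1 the window ran from 118 to 146 Mb, on chromosome 2 from 88 to 98, on chromosome 3 from 87 to 96, on chromosome 4 from 46 to 55, on chromosome 5 from 43 to 53 and on chromosome 6 from 56 to 66. On chromosome 7 it ran from 55 to 64 Mb, on chromosome 8 from 41 to 51, on chromosome 9 from 38 to 73, on chromosome 10 from 37 to 45, on chromosome 11 from 48 to 59 and on chromosome 12 from 31 to 39. On chromosome 16 it ran from 31 to 48 Mb, on chromosome 17 from 20 to 26, on chromosome 18 from 13 to 20, on chromosome 19 from 24 to 33, on chromosome 20 from 23 to 31 and on chromosome 21 from 9 to 15. No gene annotation or sequence of this build was used, so peaks are described by position alone.

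The WT pemetrexed list had the highest share of its peaks beside centromeres. Of its 916 peaks placed on chromosomes, 6.11% lay in the windows (95% exact Clopper-Pearson interval 4.65 to 7.87%). The share was 2.96% in KO cisplatin (2.49 to 3.49%), 1.83% in WT cisplatin (1.26 to 2.56%) and 1.19% in KO pemetrexed (0.919 to 1.53%). The WT pemetrexed interval overlapped none of the other three, while that of WT cisplatin overlapped those of both KO lists. With peaks within 100 kb joined, the shares were 4.12% for WT pemetrexed (2.89 to 5.69%), 3.05% for KO cisplatin (2.45 to 3.76%), 2.75% for KO pemetrexed (1.90 to 3.84%) and 1.88% for WT cisplatin (1.25 to 2.70%), and the WT pemetrexed interval then overlapped both KO intervals. Without peaks within 200 kb of the stretches described below, they were 2.82% (1.84 to 4.14%), 2.10% (1.70 to 2.56%), 1.06% (0.804 to 1.38%) and 1.61% (1.08 to 2.30%) in the same order. The windows made up 7.43% of the span between the first and last peak of each chromosome, and 58.9% of their length lay in the longest peak-free stretch of each window. All intervals cover counting error only and count each peak as an independent event, although peaks in 1 run are not. With 1 library per group no difference has a replicate check, and read depth is unknown.

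In flanks, stretches of the same chromosomes with 50% of the window length on each side, the lists were closer to each other. The flanks held 6.77% of WT pemetrexed peaks (95% exact interval 5.23 to 8.59%), 7.45% of KO cisplatin (6.71 to 8.25%), 6.04% of WT cisplatin (4.98 to 7.24%) and 5.77% of KO pemetrexed (5.15 to 6.43%). The WT pemetrexed list thus held similar numbers in windows and flanks, 56 and 62 peaks. The KO pemetrexed list held 63 and 304, the KO cisplatin list 135 and 340, and the WT cisplatin list 33 and 109.

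**Figure D1:**
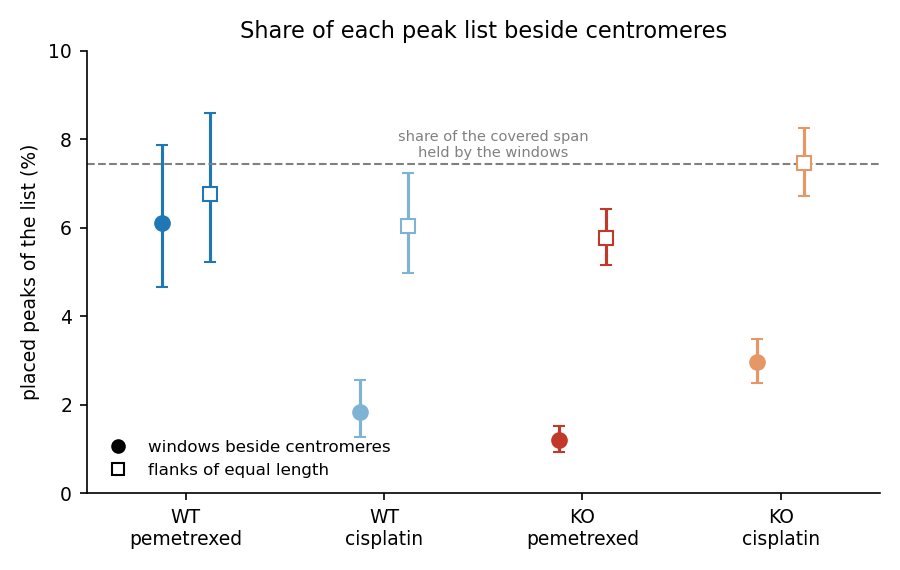
Percent of each list's placed peaks (vertical axis) in the windows beside centromeres (filled circles) and in flanks of equal length (open squares), by list (horizontal axis), with 95% exact binomial intervals. In the windows WT pemetrexed stands at 6.11% against 1.19 to 2.96% in the other lists, while the flanks range from 5.77 to 7.45%; the dashed line is the 7.43% of the covered span held by the windows.

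The first comparison asked how UNG loss was associated with γH2AX peaks after pemetrexed beside centromeres. The KO and WT lists held nearly the same number there, 63 against 56 peaks, a ratio of 1.12 (95% exact interval 0.772 to 1.64). In the flanks the ratio was 4.90 (3.72 to 6.55), from 304 against 62 peaks. Over all placed peaks outside the windows it was 6.06 (5.63 to 6.52), from 5209 against 860. The ratio in the windows was 0.186 times that outside them (conditional odds ratio, 95% exact interval 0.127 to 0.273) and 0.230 times that in the flanks (0.143 to 0.370). Counted singly, the peaks of these 2 libraries were thus placed differently by more than counting error. When peaks within 100 kb were joined the first of these values was 0.658 and its interval reached 1 (0.393 to 1.10), and the second was 0.644 (0.346 to 1.19). Without the window of chromosome 17 the KO over WT ratio in the windows was 0.736 (0.474 to 1.13).

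After cisplatin the KO list held more peaks beside centromeres, 135 against 33, a ratio of 4.09 (95% exact interval 2.78 to 6.18). The ratio was 3.12 (2.51 to 3.91) in the flanks and 2.498 (2.36 to 2.64) outside the windows. The ratio in the windows was 1.64 times that outside (conditional odds ratio, 95% exact interval 1.11 to 2.48) and 1.31 times that in the flanks (0.833 to 2.10), an interval that includes 1. Without the window of chromosome 10 the first of these was 1.42, with an interval that also includes 1 (0.953 to 2.17).

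The KO over WT ratio in the windows was 0.276 times as large after pemetrexed as after cisplatin (conditional odds ratio, 95% exact interval 0.157 to 0.479). Without peaks within 200 kb of a peak-free stretch it was 0.685 with an interval that includes 1 (0.348 to 1.35). Outside the windows the same factor was 2.42 (2.21 to 2.66) and in the flanks 1.57 (1.10 to 2.27), on the other side of 1. Within WT cells pemetrexed gave 1.70 times as many peaks beside centromeres as cisplatin (1.08 to 2.69) but 0.485 times as many outside (0.447 to 0.527). Within KO cells it gave 0.467 times as many beside centromeres (0.340 to 0.634) and 1.18 times as many outside (1.13 to 1.23). The contrast inside over outside was 3.49 in WT (2.21 to 5.59) and 0.397 in KO (0.289 to 0.540). Without peaks near a stretch the WT value was 1.78, with an interval that includes 1 (0.991 to 3.16). Joining peaks within 100 kb brought the KO value to 0.898 (0.578 to 1.37). Without the window of chromosome 16 the WT ratio of 1.70 became 1.4 (0.856 to 2.32), and without that of chromosome 17 the KO ratio of 0.467 became 0.312 (0.212 to 0.450).

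**Figure D2:**
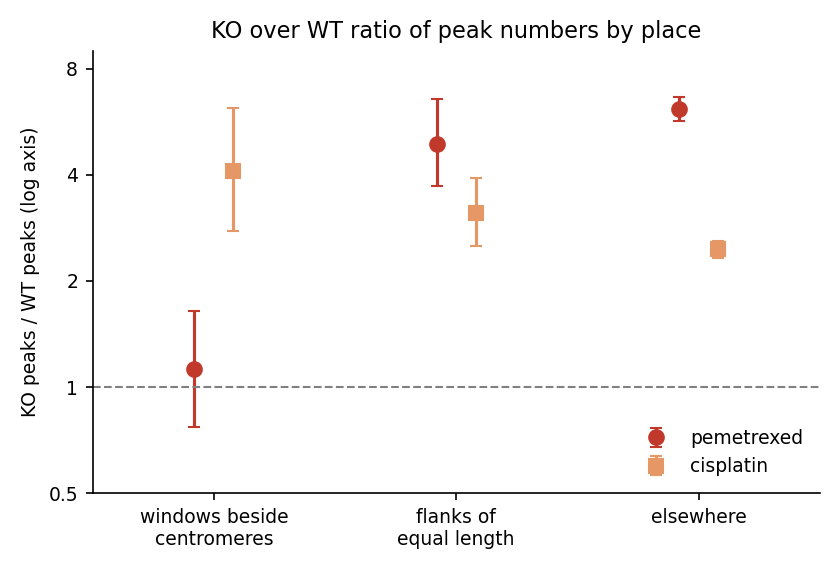
KO over WT ratio of peak numbers (vertical log axis) in the windows, in their flanks and in the rest of the chromosomes, for pemetrexed (circles) and cisplatin (squares), with 95% exact intervals that cover counting error only. Pemetrexed goes from 1.12 beside centromeres to 4.90 and 6.15, and cisplatin from 4.09 to 3.12 and 2.46.

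The windows did not share these peaks evenly. WT pemetrexed peaks occurred in 16 of 18 windows, KO cisplatin peaks in 17, WT cisplatin peaks in 12 and KO pemetrexed peaks in 11. The 3 fullest windows held 73.0% of the KO pemetrexed members (46 of 63): 24 on chromosome 17, 14 on chromosome 20 and 8 on chromosome 16. They held 50% of the WT pemetrexed members (28 of 56), with 14 on chromosome 16, 8 on chromosome 10 and 6 on chromosome 8. KO cisplatin was fullest on chromosome 20 with 22 peaks, chromosome 10 with 18 and chromosome 8 with 14. WT cisplatin was fullest on chromosome 18 with 7, chromosome 17 with 5 and chromosome 20 with 4.

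After pemetrexed, 10 windows held fewer KO than WT peaks, 5 held more and 3 held equal numbers, 2 of these with 0 in both. The windows of chromosomes 3, 4, 5, 10, 11, 19 and 21 had no KO pemetrexed peak. Together these 7, picked for that absence, held 15 of 56 WT pemetrexed, 2 of 33 WT cisplatin and 38 of 135 KO cisplatin members. After cisplatin the direction was nearly uniform: 16 windows held more KO than WT peaks, 1 held fewer and 1 had equal numbers. The KO cisplatin list was also the larger outside the windows, by a ratio of 2.498, so this direction is not particular to the windows. On chromosome 10 the order of KO and WT differed between the drugs, with 8 WT pemetrexed and 18 KO cisplatin peaks and 0 in both other lists. Chromosome 17 showed the opposite order for pemetrexed, with 3 WT and 24 KO peaks.

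**Figure D3:**
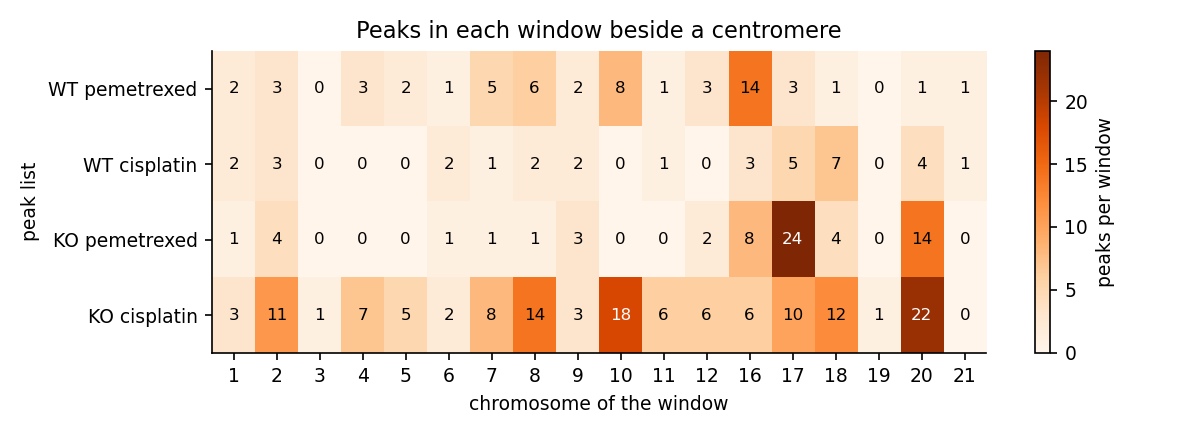
Number of peaks in each window (cells, darker for more), with windows by chromosome on the horizontal axis and the 4 peak lists on the vertical axis. The KO pemetrexed peaks gather on chromosomes 17, 20 and 16 (24, 14 and 8), whereas WT pemetrexed and KO cisplatin both have peaks on chromosomes 4, 5, 7, 8 and 10, where KO pemetrexed has 0 or 1.

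Bins of 1 Mb in the windows were also set beside those over all chromosomes. Of the 48 bins in the windows with a pemetrexed peak, 30 (62.5%, 95% exact interval 47.4 to 76.0%) held fewer KO than WT peaks, against 40.7% of such bins over all chromosomes. KO was higher in 18 of them (37.5%), against 54.0% over all chromosomes. After cisplatin KO was higher in 49 of 62 bins (79.0%, 66.8 to 88.3%), an interval that includes the 70.4% over all chromosomes. Within KO cells pemetrexed was lower than cisplatin in 51 of 62 bins (82.3%, 70.5 to 90.8%), against 69.7% over all chromosomes, just below the interval. Within WT cells it was higher in 30 of 53 bins (56.6%, 42.3 to 70.2%), against 31.3% over all chromosomes.

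The longest stretch of each window without a peak of any list was 1.54 to 28.2 Mb long, with a median of 3.73 Mb. These stretches were found from the peaks themselves and are not an annotation of the centromere. On chromosomes 3, 12 and 19 they ran to the end of the window. The peaks that bounded them came from KO cisplatin at 19 sides, WT pemetrexed at 10, WT cisplatin at 2 and KO pemetrexed at 2.

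WT pemetrexed members lay closest to these stretches. Their median distance was 90.9 kb (interquartile range 10.04 to 1434 kb), against 794.6 kb for WT cisplatin (498.2 to 1669 kb), 867.4 kb for KO cisplatin (35.1 to 1760 kb) and 1509 kb for KO pemetrexed (726.5 to 2070 kb). These medians include the bounding peaks, 10 of WT pemetrexed, 2 of WT cisplatin, 19 of KO cisplatin and 2 of KO pemetrexed, and so are lowered in part by construction. Within 200 kb of a stretch lay 31 of 56 WT pemetrexed members (55.4%, 95% exact interval 41.5 to 68.7%), 40 of 135 KO cisplatin (29.6%, 22.1 to 38.1%), 4 of 33 WT cisplatin (12.1%, 3.40 to 28.2%) and 7 of 63 KO pemetrexed (11.1%, 4.59 to 21.6%). Without the bounding peaks, which lie at distance 0 by construction, the shares were 45.7%, 18.1%, 6.45% and 8.20% in the same order. With each stretch set by the other 3 lists alone, they were 55.4% for WT pemetrexed, 24.4% for KO cisplatin, 9.09% for WT cisplatin and 7.94% for KO pemetrexed. Each list is then measured against its own stretches, so these values are not a like-for-like comparison. Inside the redrawn stretches lay 15 of 56 WT pemetrexed, 35 of 135 KO cisplatin, 2 of 33 WT cisplatin and 5 of 63 KO pemetrexed members. In both countings WT pemetrexed and KO cisplatin had the higher values, but the KO cisplatin interval overlapped those of WT cisplatin and KO pemetrexed. Without the bounding peaks it was 11.6 to 26.3%, against 0.791 to 21.4% for WT cisplatin and 2.72 to 18.1% for KO pemetrexed. With stretches set by the other lists it was 17.46 to 32.6%, against 1.92 to 24.3% and 2.63 to 17.56% in the same order. Both countings were chosen after the positions had been seen. Few places carried these numbers. Of the 31 WT pemetrexed members within 200 kb, 10 lay above the stretch of chromosome 16, 4 above that of chromosome 8 and 3 above that of chromosome 7. Of the 40 KO cisplatin members, 5 lay above the stretch of chromosome 20, 4 above that of chromosome 10 and 4 below that of chromosome 8. The intervals count each peak as independent and do not cover this.

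The members near to and far from the stretches are given as a description, since the peaks compared also set the stretches. Within 200 kb the KO over WT ratio was 0.226 for pemetrexed (7 against 31 peaks, 95% exact interval 0.0839 to 0.523) and 10 for cisplatin (40 against 4, 3.61 to 38.5). In the rest of the windows it was 2.24 for pemetrexed (56 against 25, 1.37 to 3.75) and 3.28 for cisplatin (95 against 29, 2.14 to 5.15). With the bounding peaks left out, the numbers within 200 kb were 5 against 21 for pemetrexed, a ratio of 0.238 (0.0701 to 0.649), and 21 against 2 for cisplatin, a ratio of 10.5 (2.57 to 92.4). In the rest of the windows WT cells had 0.862 times as many pemetrexed as cisplatin peaks (25 against 29, 0.484 to 1.52). Within 200 kb they had 7.75 times as many (31 against 4, 2.74 to 30.2). WT pemetrexed peaks bounded the stretches at 10 sides and WT cisplatin peaks at 2. Leaving out peaks near these sides thus removes WT pemetrexed peaks in part by construction. The split therefore cannot show where the WT excess of pemetrexed lies. With the peaks within 200 kb left out, the pemetrexed KO over WT ratio in the windows was 0.370 times that outside (0.226 to 0.622). The cisplatin ratio was then 1.31 times that outside, with an interval that includes 1 (0.854 to 2.07). The sources used here do not state how reads that match several repeats were placed, and its part in these counts was not tested.

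**Figure D4:**
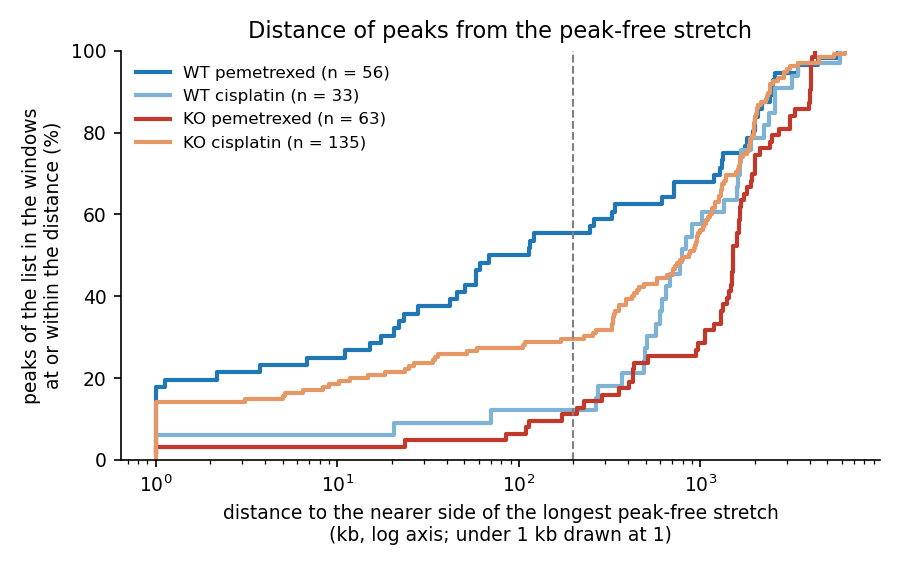
Cumulative percent of each list's members (vertical axis) by distance in kb to the nearer side of the longest peak-free stretch of their window (horizontal log axis), 1 line per list, with a dashed line at 200 kb. At that line WT pemetrexed has reached 55.4% and KO cisplatin 29.6%, against 12.1% for WT cisplatin and 11.1% for KO pemetrexed. The lines include the peaks that bound a stretch.

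On chromosome 16 the stretch ran from 35116304 to 44943249, and WT pemetrexed peaks bounded it on both sides. At its upper side 10 WT pemetrexed peaks stood within 69.5 kb (44943249 to 45012734), the run of that list in the windows with the most peaks. Their widths ran from 371 to 1518 bp. The first spanned 44943249 to 44944410 (1161 bp), the next 44945424 to 44946942 (1518 bp) and the third 44958306 to 44959528 (1222 bp). In the same run there was 1 WT cisplatin peak (44963900 to 44964274), which lay within a WT pemetrexed peak (44963677 to 44964275), and no peak of either KO list. Of the 8 KO pemetrexed peaks of this window, 7 lay on the other side, in 124.9 kb at the short-arm end of the window (31011059 to 31135909), where no other list had a peak. The remaining one lay beyond the WT pemetrexed run, at 45229807 to 45231399.

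On chromosome 10 WT pemetrexed and KO cisplatin peaks stood side by side. Below the stretch (39169377 to 42110403), 8 KO cisplatin peaks lay within 99.1 kb (38813564 to 38912635), 779 to 3003 bp wide, and 4 WT pemetrexed peaks lay within 92.3 kb (38830246 to 38922581). They met at 3 places, 38829165 to 38830799, 38843766 to 38844882 and 38908805 to 38912635. Closer to the stretch came WT pemetrexed peaks at 39121794 to 39123645 and 39168181 to 39169377, and KO cisplatin peaks at 39133072 to 39134819 and 39163023 to 39164211. Above it, 1 WT pemetrexed peak began at 42110403, and 4 KO cisplatin peaks followed within 24.4 kb (42113525 to 42137927), 1504 to 2739 bp wide. No peak of the KO pemetrexed or WT cisplatin list lay anywhere in this window.

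Peaks of these lists also stood beside the stretches of other windows, not always together. On chromosome 8, 4 WT pemetrexed peaks stood within 51.4 kb above the stretch (46971134 to 47022571), between 435 and 848 bp wide, and 1 of them met a KO cisplatin peak (46987598 to 46988647). A further 4 KO cisplatin peaks lay within 59.1 kb below it (43880907 to 43939994). On chromosome 7, 3 WT pemetrexed peaks lay within 9.19 kb (61381475 to 61390663), with no KO cisplatin peak between them, above a stretch that ended at 61268104. On chromosome 4 the stretch from 49341787 to 53098739 was bounded on both sides by WT pemetrexed peaks, with a KO cisplatin peak of 2914 bp at 49328646 to 49331560. In the window of chromosome 20 the stretch from 25415843 to 29267565 was bounded by KO cisplatin peaks, 5 of which lay within 20.8 kb at its upper side (29267565 to 29288414), and no WT pemetrexed peak lay within 200 kb of it.

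KO pemetrexed members gathered away from the stretches. The run with the most peaks was on chromosome 17, with 13 in 366.3 kb (23886991 to 24253319) and no peak of any other list between them. It held the 5 widest KO pemetrexed members: 6210 bp (24230364 to 24236574), 3562 bp (24066213 to 24069775), 2176 bp (24091416 to 24093592), 2086 bp (23982428 to 23984514) and 1822 bp (24251497 to 24253319). These lay 1393 to 1662 kb above the peak-free stretch. A further 5 KO pemetrexed peaks stood on chromosome 20 within 109.7 kb (29670777 to 29780472), and 1 of them met a KO cisplatin peak (29695400 to 29696863). The bin of 1 Mb with the most KO pemetrexed members was on chromosome 17 (24000001 to 25000000). It held 15 KO pemetrexed peaks, beside 5 of KO cisplatin, 1 of WT pemetrexed and 0 of WT cisplatin. It was followed by 30000001 to 31000000 on chromosome 20, with 7, 9, 0 and 1 in the same order, and by 31000001 to 32000000 on chromosome 16, with 7 KO pemetrexed peaks alone.

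In the WT pemetrexed list the fullest bin was on chromosome 16 (44000001 to 45000000), with 7 peaks against 1 in WT cisplatin and 0 in both KO lists. The next was on chromosome 10 (38000001 to 39000000), with 4 WT pemetrexed and 12 KO cisplatin peaks, the fullest for KO cisplatin members too. A tie of 3 WT pemetrexed peaks followed in 4 bins on chromosomes 7, 8 and 16. The KO cisplatin list had 9 peaks in its next bin, 30000001 to 31000000 on chromosome 20, and 7 in 43000001 to 44000000 on chromosome 8. WT cisplatin had at most 3 peaks in a bin, on chromosome 18 (19000001 to 20000000), where the other lists had 1, 3 and 4 (WT pemetrexed, KO pemetrexed and KO cisplatin). Its densest run was on the same chromosome, 3 peaks within 71.4 kb (18939997 to 19011403).

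Width, the only value that the lists give for a peak, set the WT pemetrexed members apart from the rest of their list. Their median width was 636 bp (interquartile range 560 to 853), against 582 bp outside the windows (547 to 629). Of its 56 members, 8 were at least 1 kb wide (14.3%, 95% exact interval 6.38 to 26.2%), against 1.09% of the whole list and 2 of 860 outside the windows (0.233%, 0.0282 to 0.838%). All 8 lay within 200 kb of a peak-free stretch. The 5 widest peaks of the list were members, as were 8 of the 10 widest and 11 of the 20 widest. The widest of these were the peaks of 1851 and 1196 bp below the stretch of chromosome 10 and those of 1518 and 1222 bp above the stretch of chromosome 16, described above. The remaining one of the first 5 bounded the stretch of chromosome 2 (91682774 to 91684067, 1293 bp).

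The KO cisplatin members had a median width near that of the rest of the list, 789 bp (interquartile range 650 to 988) against 814 bp (691 to 952), but more very wide peaks. Peaks of 2 kb or more were 9 of 135 members (6.67%, 95% exact interval 3.09 to 12.3%), against 0.986% of the whole list and 36 of 4427 outside the windows (0.813%, 0.570 to 1.12%). The widest member spanned 5167 bp on chromosome 8, from 43211544 to 43216711. The next was on chromosome 16, from 33771965 to 33776372 (4407 bp), with 2 WT pemetrexed peaks in the 38.2 kb above its start. Those of 3257 bp on chromosome 20 (29276586 to 29279843), 3003 bp on chromosome 10 and 2914 bp on chromosome 4 belonged to the groups already named. Of the 10 widest peaks of the list, 5 were members.

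KO pemetrexed members showed the opposite against their whole list, but were not set apart from the flanks. Peaks of 2 kb or more were 4 of 63 (6.35%, 95% exact interval 1.76 to 15.5%), against 22.6% of the whole list and 1190 of 5209 outside the windows (22.8%, 21.7 to 24.01%). In the flanks alone they were 35 of 304 (11.5%, 8.15 to 15.6%), an interval that overlaps that of the members. None of the 50 widest peaks of that list lay in a window. The KO pemetrexed members had a median width of 1071 bp (quartiles 862 and 1400), against 1173 bp outside the windows (908 to 1897) and 1028 bp in the flanks. WT cisplatin members had a median of 597 bp (540 to 655) against 624 bp (571 to 732), and 1 of 33 reached 1 kb (3.03%, 0.0767 to 15.8%), against 4.60% of the whole list. That peak, 1528 bp on chromosome 21 (10157646 to 10159174), bounded a peak-free stretch. The next widest WT cisplatin members were 990 bp (29882707 to 29883697) and 752 bp (24906871 to 24907623) on chromosome 20, and 785 bp (19010618 to 19011403) and 693 bp (18939997 to 18940690) on chromosome 18.

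**Figure D5:**
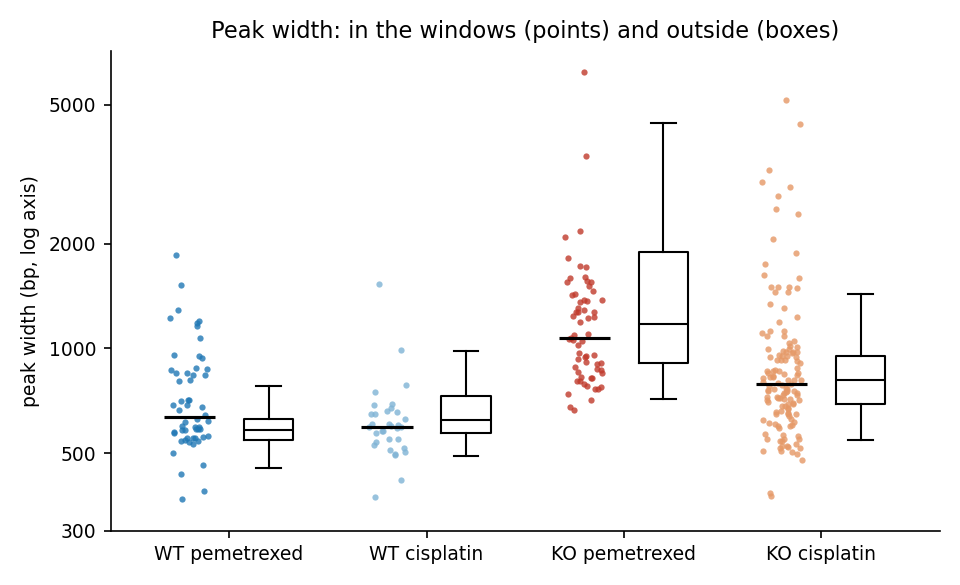
Width in bp (vertical log axis) of each peak in the windows (points, with a bar at the median) beside the peaks of the same list outside them (boxes for the median and quartiles, whiskers at the 5th and 95th percentiles), by list (horizontal axis). WT pemetrexed members reach 1851 bp with 8 of 56 at 1 kb or more, and KO pemetrexed members have 4 of 63 at 2 kb or more.

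Peaks of the WT pemetrexed list were closer together beside centromeres than elsewhere. Of its members, 29 of 56 (51.8%, 95% exact interval 38.0 to 65.3%) lay within 100 kb of another peak of the list, against 12.6% of the whole list and 86 of 860 outside the windows (10%, 8.08 to 12.2%). KO pemetrexed went the other way, with 39 of 63 (61.9%, 48.8 to 73.9%) against 88.4% of the whole list and 88.7% outside the windows (87.8 to 89.5%). The cisplatin lists were alike in and out of the windows. KO cisplatin had 57.8% (49.0 to 66.2%) against 57.1% of the whole list, and WT cisplatin had 27.3% (13.3 to 45.5%) against 30.0%.

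Members of different lists rarely overlapped, but so did peaks of the whole lists. The whole-list shares given below run from 0.241 to 7.32%, so rare overlap is not particular to the windows. The 287 members covered 279 separate regions, of which 8 had peaks of 2 lists and 0 had peaks of 3 or more. WT pemetrexed and KO cisplatin shared 4, and 1 at a reciprocal overlap of 50%. The 4 are 7.14% of the WT pemetrexed members (95% exact interval 1.98 to 17.3%) against 1.2% of that whole list. They are 2.96% of the KO cisplatin members (0.813 to 7.41%), against 0.241% of that whole list. The KO lists shared 3 regions, 4.76% of KO pemetrexed members (0.993 to 13.3%) against 6.24% of that list, and 2.22% of KO cisplatin members (0.461 to 6.36%) against 7.32%. They were on chromosome 20 (25186729 to 25187952 and 29695400 to 29696863) and chromosome 9 (38025263 to 38026114). The WT lists shared 1 (1.79% of WT pemetrexed members, 0.0452 to 9.55%, against 1.09% of that list). WT and KO pemetrexed shared 0, for which 3 counts would be 5.36% of the WT members and the exact upper bound is 6.38%, against 1.42% of the WT list. The cisplatin lists shared 0, for which 3 counts would be 9.09% of the WT members and the exact upper bound is 10.6%, against 1.77% of the WT list.

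The near neighbours of WT pemetrexed members are given as a description, with no test. Of 56, 17 (30.4%) lay within 10 kb of a KO cisplatin peak, against 8.52% of the whole list, and 0 lay within 10 kb of a KO pemetrexed peak, against 6.7%. A WT cisplatin peak lay within 10 kb of 5 (8.93%), against 4.83%. Their median distance to the nearest KO cisplatin peak was 109.3 kb, against 201.8 kb for WT pemetrexed peaks outside the windows. To the nearest KO pemetrexed peak it was 2560 kb, against 815.2 kb outside. Seen from the KO cisplatin list, 22 of 135 members (16.3%) lay within 10 kb of a WT pemetrexed peak, against 1.89% of that list. For the KO lists, 9 of 63 KO pemetrexed members (14.3%) lay within 10 kb of a KO cisplatin peak, against 24.1% of that list. The sources used here do not state the control behind each list, and its part in these distances was not tested.

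Near the ends of the windows each list but WT pemetrexed held more peaks outside than inside. The WT pemetrexed counts were equal but small, and no interval was computed for these counts. KO pemetrexed had 27 members within 1 Mb inside the ends and 57 peaks within 1 Mb outside, WT cisplatin 13 and 24, KO cisplatin 38 and 59, and WT pemetrexed 10 and 10. With windows widened by 1 Mb at each side, the KO over WT ratio in the windows was 1.82 for pemetrexed (95% exact interval 1.34 to 2.49).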

How the data were processed

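ChIP-seq for γH2AX was made from 6 libraries of DLD1 cells, grouped by their titles. The deposited files are 4 peak lists, 1 per drug-treated library, which per the file headers hold a chromosome, start and end. Per the submitters' processing notes, Bowtie and MACS 1.4 were used on hg18. The sources used here do not state the control library, threshold or read depth. Positions are printed as listed, and whether starts count from 0 or 1 is not given.

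Members were peaks with a midpoint in the 18 windows. The windows and comparisons were chosen with earlier results of these data known. Ratios of peak numbers have 95% intervals by the exact Clopper-Pearson method. Windows were compared with the rest by conditional odds ratios with exact intervals (SciPy 1.17.1, Python 3.11.15). Only the odds ratios were tried on simulated lists, whose peaks were independent and placed at random. The real lists hold runs of peaks, so the simulation does not show that the intervals hold for them. No p-value is given, since each group has 1 library. A peak met another at 1 bp of overlap. Percentages of whole lists are over peaks placed on chromosomes. Named regions were the 5 widest members per list, regions of several lists, the 3 fullest bins of 1 Mb per list and peaks bounding up to 6 peak-free stretches, these and the runs of peaks picked after positions were seen. Alternatives changed the windows, peak width, joining and overlap.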

Additional observations from a re-analysis of the deposited data

Results flagged for a closer look

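The KO over WT ratio of peaks beside centromeres differed between the drugs. After pemetrexed it was 0.276 of its value after cisplatin (95% exact interval 0.157 to 0.479, from 63 over 56 against 135 over 33 peaks). Leaving out 1 window at a time gave 0.166 to 0.372, and leaving out peaks within 200 kb of a peak-free stretch gave 0.685 with an interval that includes 1 (0.348 to 1.35).

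Peaks on contigs that hg18 assigns to a chromosome without a position were in no comparison. There were 8 in the WT pemetrexed list, 6 in KO pemetrexed, 8 in KO cisplatin and 2 in WT cisplatin, and all but the last exceed the 3 counts used as a limit. Contigs of chromosome 9 held 5 of the WT pemetrexed and 3 of the KO cisplatin peaks and none of the other lists.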

How the results depend on the processing

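No paired analysis was possible because no group has a second library to pair. The lists give no score, so a stricter threshold was replaced by a width of at least 600 bp. Width differs by list, so this setting does not act on the lists alike. The narrowest KO pemetrexed member was 664 bp wide, so none was removed, while the median WT pemetrexed member was 636 bp wide. Its values for KO over WT after pemetrexed thus follow in part from the widths of the lists. Of 103 alternative values for the 11 comparisons, 79 stayed within the interval of the reported value, 23 moved beyond it and 1 reversed. The cause of these changes was not tested. The alternatives that left out peaks within 200 kb of a peak-free stretch, left out 1 window in turn or held the chromosome fixed were chosen after the data were seen. For the pemetrexed KO over WT ratio of 1.12, widened windows gave 1.82, peaks of at least 600 bp 2.03, no peaks within 200 kb of a stretch 2.24, and no chromosome 17 window 0.736. Its ratio inside over outside, 0.186, became 0.300 in widened windows, 0.118 with peaks of at least 600 bp, 0.284 with peaks joined within 10 kb, 0.658 within 100 kb, 0.370 without peaks near a stretch and 0.122 without the chromosome 17 window. With the chromosome as a stratum it was 0.185 (Mantel-Haenszel, 95% interval 0.122 to 0.281). Inside over flanks, 0.230, became 0.132 with peaks of at least 600 bp, 0.644 with peaks joined within 100 kb and 0.458 without peaks near a stretch. The cisplatin KO over WT ratio of 4.09 was 7.40 with peaks of at least 600 bp. Within WT, pemetrexed over cisplatin turned from 1.70 to 0.862 without peaks near a stretch, and inside over outside moved from 3.49 to 1.78 (0.991 to 3.16), or to 7.30 with peaks of at least 600 bp. Within KO the ratio of 0.467 was 0.263 without the windows of chromosomes 16, 17 and 19 and 0.312 without that of chromosome 17, and inside over outside, 0.397, was 0.222 and 0.265, or 0.898 with peaks joined within 100 kb. The factor between drugs, 0.276, was 0.535 in widened windows and 0.685 without peaks near a stretch (0.348 to 1.35). The share of KO pemetrexed peaks in the windows, 1.19%, ranged from 0.601% without the windows of chromosomes 16, 17 and 19 to 2.75% with peaks joined within 100 kb. Depth limits all counts and is unknown.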
